A study of Mus musculus with 8 samples.

Results

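The genes examined encode the proteins of the cytosolic ribosome. They were found by name among the probes for RefSeq mRNAs: Rpsa, Rplp0, Rplp1, Rplp2 and every symbol made of Rps or Rpl, a number and at most 1 of the letters a, l or x. This gave 79 genes with 166 probes, of 35715 gene names and 55681 probes on the array, and it leaves out the S6 kinases and the mitochondrial ribosomal proteins. The rule uses names alone, but it was chosen with earlier results of these data known.

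The cells were NIH3T3, an immortalised line of mouse embryonic fibroblasts, which all groups share. They were grown in 10% newborn bovine serum and kept in 0.5% serum for 24 h. One group of 3 arrays then had 20 µM cordycepin in DMSO for 90 min, with newborn bovine serum added for the last 30 min. A second group of 3 arrays had 0.1% DMSO in place of cordycepin and the same 30 min of serum. The third group of 2 arrays stayed in low serum without cordycepin, and the protocol gives DMSO to its controls. No array of cordycepin without serum was analysed here. Cordycepin is 3′-deoxyadenosine, an analogue of adenosine without the 3′ hydroxyl that RNA synthesis and polyadenylation need to extend a chain.

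Each eukaryotic ribosome has a small subunit, which reads the mRNA and carries the Rps proteins, and a large subunit, which forms peptide bonds and carries the Rpl proteins. Rplp0, Rplp1 and Rplp2 form the stalk of the large subunit, which recruits the GTPases of translation. The mRNAs of these proteins are abundant and long-lived, and most begin with a 5′ terminal oligopyrimidine (TOP) tract, a C followed by a run of C and T. Growth factors acting through mTOR are known to control TOP mRNAs mainly at the level of translation, which total RNA on an array does not measure. The study followed cordycepin and growth factor signalling. In polysome profiles of human breast cancer cells it reported that cordycepin enriched ribosomal protein mRNAs in the subpolysomal fraction, a measure of translation. It used human RPL10A as a control gene for RT-qPCR, and it lists human primers for the counterparts of Rpl23a, Rpl7, Rps15a and Rps18. The question here is whether the array signal of these mRNAs moved with cordycepin or with serum. Labelling was primed from the poly(A) tail, and the study reported shorter poly(A) tails with cordycepin in human breast cancer cells. The part of tail length in the signal was not tested.

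The sequence feature that names the TOP class was looked up first, because it was not used to choose the genes. The RefSeq table of promoters (build GRCm38.p6) held windows for 59 of the 79 symbols, each with 250 bases before the annotated start of transcription and 50 after. A tract was counted where a C followed by at least 4 bases that are C or T began within 5 bases of the annotated start, on the strand of the gene. It was present for 28 of the 59 genes (47.5%), against 21.2% of all 27025 gene symbols in that table. Absence of a match says only that these letters are not in that window. The lines below give 30 bases around the annotated start, of which the first 15 lie before it, for members described later. The tract is in capitals, and Rps16, Rplp0 and Rpsa had no match.
Rps6, chr4:86857353-86857382, minus: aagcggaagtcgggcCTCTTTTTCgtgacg
Rps18, chr17:33955651-33955680, minus: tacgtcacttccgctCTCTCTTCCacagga
Rps15a, chr7:118116133-118116162, minus: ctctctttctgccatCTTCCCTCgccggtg
Rps10, chr17:27635230-27635259, minus: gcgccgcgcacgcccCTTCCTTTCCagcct
Rps9, chr7:3704026-3704055, plus: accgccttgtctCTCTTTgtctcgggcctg
Rplp2, chr7:141447636-141447665, plus: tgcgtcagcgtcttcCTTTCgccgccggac
Rps16, chr7:28350674-28350703, plus: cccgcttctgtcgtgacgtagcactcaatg
Rplp0, chr5:115559452-115559481, plus: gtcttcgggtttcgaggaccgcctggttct
Rpsa, chr9:120127751-120127780, plus: gtgggttatttaaggacgtcatttccggcc

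Signal is given throughout as normalised log2 signal, which is log2 of the processed signal minus the 75th percentile of the same array. That percentile lay between 350.5 and 802.2 linear units. The share of probes well above background per array was 51.1 to 57.1%, and arrays of 1 group correlated at 0.993 to 0.996 across probes. All 10 fibroblast markers examined were above background on all 8 arrays. The same held for 1 of 6 epithelial markers, 3 of 6 blood and immune, 3 of 5 endothelial and 3 of 6 neural ones, and Cdh1, Krt5, Krt19, Cdh5, Emcn and Syt1 were above background on no array. With cordycepin against serum, Krt14, Cd68, Itgam, Snap25 and Tubb3 rose past an adjusted p of 0.05, of 12 tested markers other than fibroblast ones. Of all probes tested 12.1% were higher, and of 17899 RefSeq mRNA probes 1201 were. Linear signal, in multiples of the 75th percentile, was also summed over all genes of a list, tested or not. For the blood and immune list it was 26.9 to 33.8 with cordycepin and 15.0 to 17.2 with serum. It was 13.4 to 18.9 and 9.53 to 10.5 for the neural list, and 2780 to 3390 and 2450 to 2880 for the fibroblast list. The endothelial sums overlapped, at 5.53 to 6.28 and 4.93 to 6.93, and the epithelial sums were 0.169 to 0.188 and 0.135 to 0.145. Among tested blood and immune genes, log2 differences were 3.04 for Cd68, 0.64 for Itgam and 0.14 for the lowest. The part of these marker changes in the values below was not tested.

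Of the 79 genes, 77 were measurable, with 162 probes that stood well above background on all arrays of 1 group or more. Rpl3l, a paralogue of Rpl3 known from striated muscle, was above background on 2, 1 and 1 arrays of the cordycepin plus serum, serum and no serum groups. Rpl10l, a paralogue of Rpl10 known from testis, was above background on no array with either of its probes. Among the genes measured, all 77 lay in the brightest 10% of the 30863 probes tested, with mean normalised log2 signals from 5.45 to 9.43. The brightest probe of a gene is used below unless another is named. By its listed position (build mm9), 109 of the 166 probes lie on another chromosome than the gene, 54 on the same one and 3 have no position. Ribosomal protein genes have many intron-less copies, so signal from the gene and from a near-identical copy cannot be told apart. In bulk RNA, fewer cells with the mRNA and less mRNA per cell also cannot be told apart.

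With cordycepin, no ribosomal protein gene changed past the test. Between cordycepin plus serum and serum, 0 of 77 genes had an adjusted p under 0.05, where 19.4% of all probes tested did, with 12.1% higher and 7.26% lower. Among the 17899 tested probes for RefSeq mRNAs, to which the members belong, 14.1% passed, 1201 higher and 1318 lower. At an unadjusted p under 0.05 there were 13 of 77 genes (16.9%), against 32.2% of all probes and 689 of 3087 in the brightest 10%. The median log2 difference of the 77 genes was 0.26, or 1.19-fold, and 77 of 77 values were above 0, but after centring on the array median the family median was −0.049 with 10 of 77 above 0. It lay beside a median of 0.10 over all probes tested and of 0.19 over the brightest 10% of probes, which hold the members. In that class 3.76% of probes passed. Across the 77 genes the lowest bound of a 95% confidence interval was −0.14 and the highest 0.70, or 1.62-fold. With a trended and robust variance, Rpl19, Rpl35a, Rps18 and Rps9 passed, all higher (4 of 77, adjusted p 0.0382 to 0.0495), against 13.7% of all probes higher. The share in the brightest 10% was not computed for that fit.

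Fewer bright than dim probes passed, as the plot of change by signal class shows. Among the dimmest 10% of probes 34.1% passed, and among the brightest 10% it was 3.76%. A probe was tested if all arrays of any group measured it well above background. A dim probe could thus enter the test through the group where it was high. The part of this filter in the difference between dim and bright probes was not tested. The members ran from 0.12 to 0.37, beside a median of 0.19 and a 90th percentile of 0.31 in that brightest class.

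**Figure D1:**
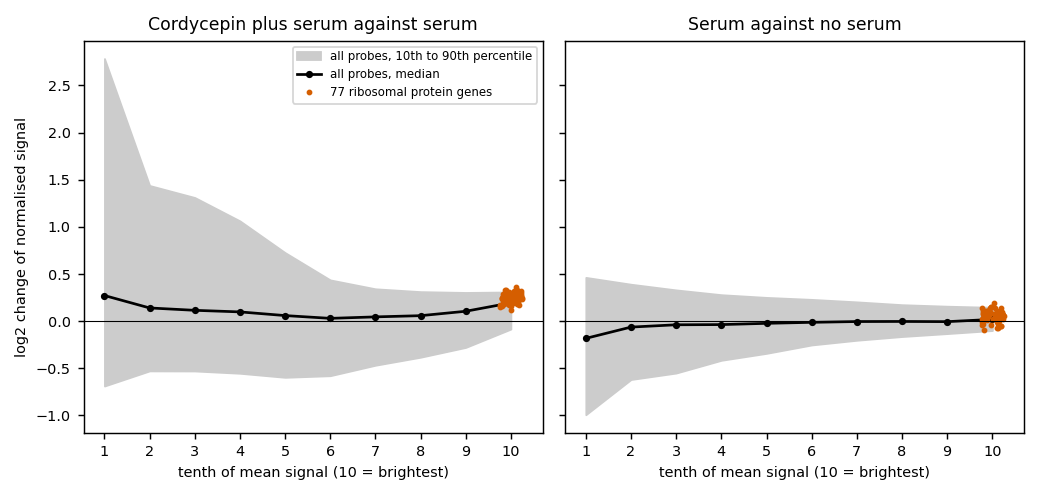
Log2 change of normalised signal against 10 equal classes of mean signal (10 is the brightest), for cordycepin plus serum against serum on the left and serum against no serum on the right, with a grey band from the 10th to the 90th percentile of all probes and a black line at their median. The orange points, the 77 ribosomal protein genes, all lie in class 10, with medians of 0.26 (−0.049 with arrays centred on their medians) and 0.06 (−0.33 with arrays centred on spike-in probes).

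The small subunit genes had a median log2 difference of 0.27 with cordycepin (31 genes, 0.12 to 0.37), and 0 of 31 passed. Rps9, a small subunit protein (probe at chr7:3658287-3658346, mm9), had the largest value of all 77 genes. Its normalised log2 signal was 9.26, 9.00 and 8.95 on the 3 cordycepin plus serum arrays, 8.69, 8.82 and 8.60 on the serum arrays, and 8.51 and 8.79 without serum. All cordycepin arrays thus lay above all others. The log2 difference to serum was 0.37 ± 0.13 (SE, n = 3 and 3 arrays), with an adjusted p of 0.101 by limma.

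Rps6 is the small subunit protein that the S6 kinases phosphorylate downstream of mTOR. Its normalised log2 signal was 9.26, 8.83 and 8.89 with cordycepin plus serum, 8.71, 8.80 and 8.59 with serum, and 8.47 and 8.75 without serum. The cordycepin arrays lay above all others, the lowest of them close to the highest serum array. The log2 difference was 0.29 ± 0.15 (SE), with an adjusted p of 0.221 by limma. Its 3 probes gave values from 0.27 to 0.31.

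Rps18, a protein of the head of the small subunit, measured 8.49, 8.34 and 8.21 with cordycepin plus serum, 8.11, 8.03 and 8.02 with serum, and 8.08 and 8.11 without. The log2 difference was 0.30 ± 0.11 (SE, adjusted p 0.103) on this probe, and 0.11 on its other probe. Rps19, the gene most often mutated in Diamond-Blackfan anaemia, had the smallest value of the family at 0.12 ± 0.11 (adjusted p 0.486). Its arrays overlapped, with 7.41, 7.60 and 7.42 in cordycepin plus serum and 7.46, 7.27 and 7.34 in serum. Rps15 and Rps29 followed from the low end with log2 differences of 0.14 and 0.16. Rpsa, also known as the laminin receptor, differed by 0.26 ± 0.12 (adjusted p 0.174) and the X-linked Rps4x by 0.27 ± 0.12 (adjusted p 0.146).

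Large subunit genes had a median log2 difference of 0.24 (43 genes, 0.18 to 0.33), and 0 of 43 passed. Rpl36a had the largest value among them, 0.33 ± 0.16 (SE, adjusted p 0.188), from 8.36, 7.98 and 7.92 against 7.73, 7.88 and 7.65 in serum. Replicate 1 of the cordycepin group stood above the other 2 arrays for this gene. Rpl11 and Rpl5 enter the large subunit together with 5S rRNA, and outside it bind the p53 regulator Mdm2. Rpl11 measured 9.45, 9.03 and 9.03 with cordycepin plus serum and 8.85, 8.87 and 8.82 with serum, a log2 difference of 0.33 ± 0.14 (adjusted p 0.153). For Rpl5 the difference was 0.24 ± 0.11 (adjusted p 0.191).

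A pair of large subunit genes that serve as references for RT-qPCR lay inside the family range. Rpl13a measured 7.82, 7.71 and 7.67 against 7.50, 7.69 and 7.43 in serum, with overlapping arrays and a log2 difference of 0.20 ± 0.11 (adjusted p 0.265). Rpl19 measured 8.70, 8.54 and 8.48 against 8.27, 8.36 and 8.19, without overlap, and differed by 0.30 ± 0.12 (adjusted p 0.114). Rpl10a, the protein tagged in methods that purify ribosomes from chosen cells, differed by 0.22 ± 0.13 (adjusted p 0.27). Rpl7 differed by 0.29 ± 0.13 (adjusted p 0.156), Rpl22 by 0.26 ± 0.13 (adjusted p 0.223), and Rpl23a, which lies at the exit of the peptide tunnel, by 0.22 ± 0.12 (adjusted p 0.236).

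The stalk genes Rplp0, Rplp1 and Rplp2 had log2 differences of 0.26, 0.33 and 0.30, and 0 of 3 passed. Rplp1 was the highest of them, with 9.51, 9.11 and 9.15 in cordycepin plus serum, 8.92, 9.03 and 8.85 in serum, and 8.73 and 9.00 without serum. Its adjusted p was 0.163. Rplp0 is a common reference gene, and its arrays overlapped by little, with 9.60, 9.20 and 9.22 against 9.03, 9.22 and 8.98.

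Paralogue pairs and the tract gave no wider spread of values. Rps27 differed by 0.18 ± 0.14 with cordycepin, and its paralogue Rps27l, a known p53 target, by 0.24 ± 0.10 (adjusted p 0.395 and 0.152). Rpl39 differed by 0.25 ± 0.12 and Rpl39l, a paralogue known from testis, by 0.21 ± 0.12 (adjusted p 0.206 and 0.254). Rpl10 and Rpl3, whose paralogues were not measurable, differed by 0.20 ± 0.14 and 0.25 ± 0.11 (adjusted p 0.367 and 0.172). The 28 genes with a tract at the annotated start had a median log2 difference of 0.25, and the 29 measured genes without a match had 0.24.

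**Figure D2:**
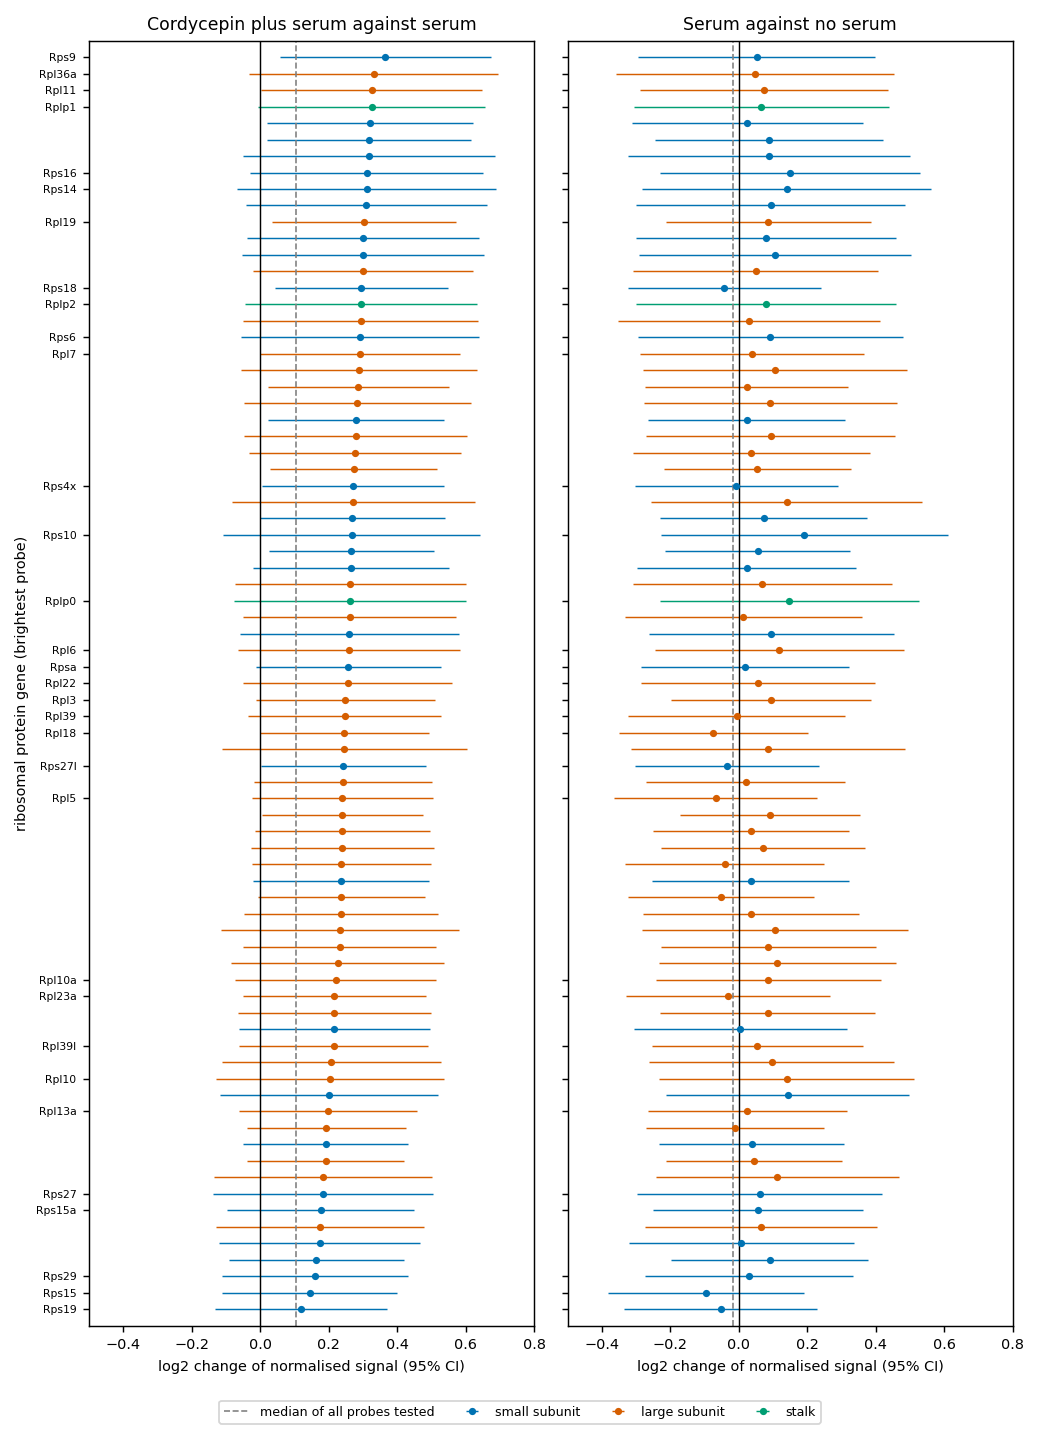
Log2 change of normalised signal for each of the 77 genes, ordered by the change with cordycepin (names are given for part of them), with 95% confidence intervals from limma and a dashed line at the median of all probes tested. Estimates run from 0.12 to 0.37 for cordycepin plus serum against serum on the left (median −0.049 if arrays are centred on their medians) and from −0.10 to 0.19 for serum against no serum on the right (median −0.33 if arrays are centred on spike-in probes).

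The genes of the family differed little from each other. The SD of the 77 log2 differences was 0.05, and the median standard error of a single gene was 0.13. That error includes shifts between arrays that the genes share, so an SD below it does not show that they agree. When each array was centred on the median of the ribosomal protein genes, relative log2 changes ran from −0.13 to 0.11. Here 0 genes passed an adjusted or an unadjusted p of 0.05 in limma, and the lowest adjusted p was 0.555, for Rps9. This centring brings the family median near 0 by construction, and the share of all probes passing under it is not given here. Of 77 genes, 46 had all cordycepin plus serum arrays above all serum arrays. The same was true of 27.0% of all probes tested and of 42.9% in the brightest 10%.

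The genes shifted together from array to array, as the plot of values by array shows. The median deviation of the 77 genes from their own mean was 0.34, 0.09 and 0.08 on the cordycepin plus serum arrays, −0.09, 0.01 and −0.17 on the serum arrays, and −0.25 and −0.03 on the arrays without serum. Replicate 1 of cordycepin plus serum held the highest value of 70 genes, and replicate 1 without serum the lowest value of 65. These were the dimmest and the brightest array, with a 75th percentile of 350.5 and 802.2. In each group the dimmest array had the highest family median. Without replicate 1 of cordycepin plus serum the median log2 difference to serum was 0.17 in place of 0.26. The part of array brightness in these values was not tested.

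**Figure D3:**
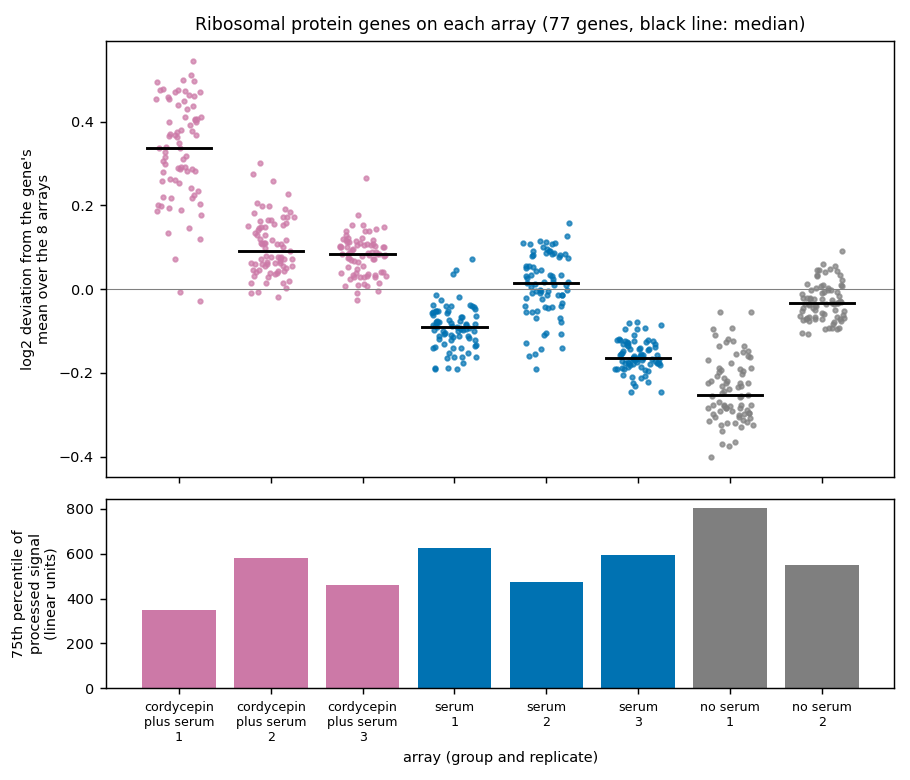
The upper panel shows the log2 deviation of each of the 77 genes (points) from its mean over the 8 arrays, with the median as a black line, and the lower panel the 75th percentile of the processed signal of the same array in linear units. The dimmest array, cordycepin plus serum replicate 1, has the highest median (0.34), and the brightest, no serum replicate 1, the lowest (−0.25).

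Relative to the median of all probes, the family lay 0.15 log2 higher with cordycepin. Bright probes as a class also lay higher than all probes. The median was 0.10 over all probes, 0.19 in the brightest 10%, which hold all 77 genes, and 0.26 for the family. The offset of 0.15 is thus not particular to the family. Scaling by the array median or by spike-in probes cannot alter this offset, because it moves all probes of an array alike. Normexp background correction and quantile normalisation can, and with them the family lay 0.095 and 0.036 above the median of all probes. Medians of the brightest 10% under these settings are not given here. Centring on the array median shifted all probes by −0.30 in this comparison.

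Probes of the same gene mostly gave the same value. Of 50 genes with several tested probes, 47 had all probes within 0.25 of each other in log2 difference, and the median range was 0.06. Probes listed on another chromosome had a median log2 difference of 0.24 (109 probes) and those on the chromosome of the gene 0.26 (51 tested probes). At the level of single probes, 2 of 162 passed an adjusted p of 0.05, both higher with cordycepin, against 12.1% of all probes tested. They are named after their values were seen.

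One of them belongs to Rps15a, a small subunit protein, and the other to Rpl6, a large subunit protein. The bases below are the first 30 of the 60 of each of these probes and of the brightest probe of the same gene, as the array files list them, with mm9 positions. They show which stretch each value was read from.
Rps15a, passing probe, chr7:125248322-125248381, minus: gtgagtcagcagaaagtatagatagcaaag
Rps15a, brightest probe, chr4:131775990-131776049, minus: attgtgctgacaacctaggctggcatcatg
Rpl6, passing probe, chr5:121659155-121659214, plus: ttagaggcacatacactgccatggctgcct
Rpl6, brightest probe, chr5:121658915-121658974, plus: ggatgtatcctcacaaactggtcttctaaa

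The passing Rps15a probe is listed at base 4642 of its target, while the other Rps15a probes lie at bases 320 and 250. No annotation of build mm9 was used here, so it was not placed in an exon, intron or UTR. Its normalised log2 signal was −1.30, −0.92 and −1.56 with cordycepin plus serum, −3.14, −4.08 and −3.51 with serum, and −3.70 and −3.35 without serum. All cordycepin arrays were above all others, and the probe was above background on all 8 arrays. The log2 difference to serum was 2.32 ± 0.26 (SE, limma adjusted p 0.000466), and to no serum 2.26 ± 0.29 (adjusted p 0.0014). On the other Rps15a probes the differences to serum were 0.18 and 0.20, with adjusted p of 0.34 and 0.216. With normexp correction the rise of this probe was 1.43 (adjusted p 5.22e-05), and against no serum the call was lost with spike-in scaling (adjusted p 0.105).

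The passing Rpl6 probe is listed at base 1154 of its target, and the others at bases 914, 819 and 787. It measured −1.17, −1.48 and −1.48 with cordycepin plus serum, −1.93, −2.08 and −2.05 with serum, and −2.11 and −1.67 without serum. The cordycepin arrays again lay above all others. The log2 difference to serum was 0.64 ± 0.15 (SE, limma adjusted p 0.019), and on the other probes 0.26, 0.22 and 0.22 (adjusted p 0.242, 0.292 and 0.322). The call was lost without cordycepin plus serum replicate 1 (adjusted p 0.0615), serum replicate 2 (0.0586) or serum replicate 3 (0.0598), and with quantile normalisation (0.055), the array median (0.166), spike-in scaling (1), centring on the ribosomal protein genes (0.0708) or no filter on dim probes (0.0696).

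**Figure D4:**
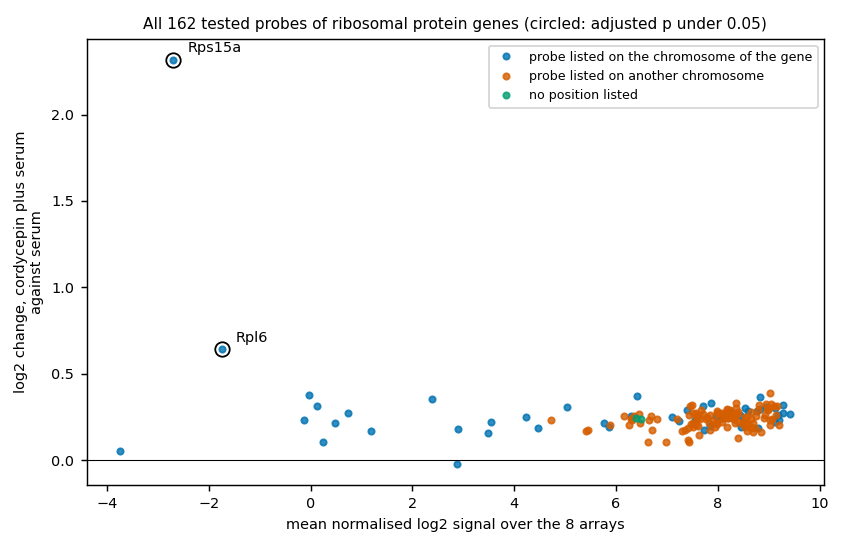
Log2 change of cordycepin plus serum against serum for all 162 tested probes, against the mean normalised log2 signal over the 8 arrays, coloured by whether the listed position is on the chromosome of the gene. The circled probes, of Rps15a at 2.32 and Rpl6 at 0.64, are the only 2 past an adjusted p of 0.05 and lie at the dim end.

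**Figure D5:**
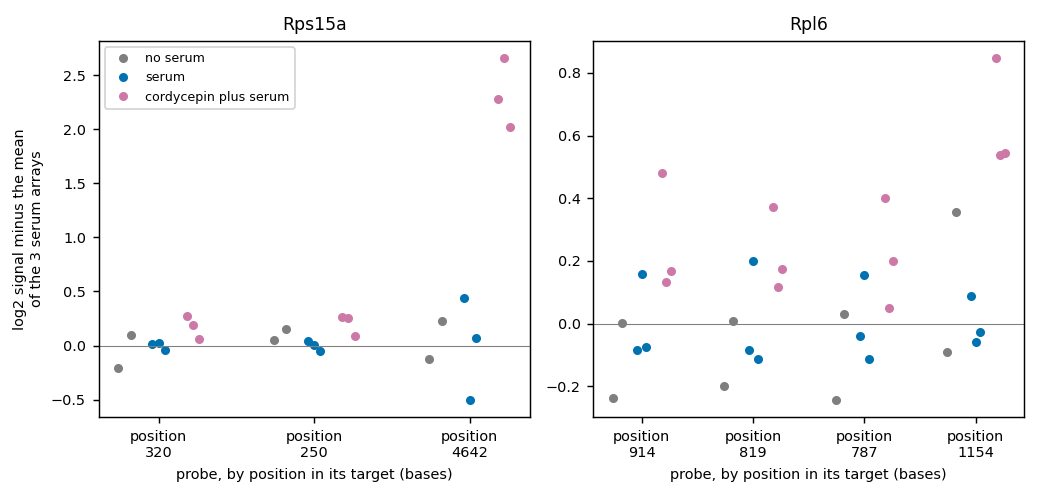
Log2 signal on each array, minus the mean of the 3 serum arrays, for every tested probe of Rps15a (left) and Rpl6 (right), labelled by the position of the probe in its target in bases. The Rps15a probe at base 4642 rose on all 3 cordycepin plus serum arrays, the Rpl6 probe at base 1154 by 0.64 on average, while the brightest probes differed by 0.18 and 0.26 and did not pass.

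What 30 min of serum did was asked next, by comparing serum with no serum. No ribosomal protein gene passed: 0 of 77 had an adjusted p under 0.05, where 2.30% of all probes tested did, and 0 of 77 had an unadjusted p under 0.05, against 10.3% of all probes. In the brightest 10% of probes, which hold the members, 0.939% passed and 101 of 3087 had an unadjusted p under 0.05. At so low a share, 0 of 77 does not set the family apart from other bright probes. The median log2 difference was 0.06, beside −0.02 over all probes tested and 0.02 in the brightest 10%, and 65 of 77 values were above 0. The sign depended on the scaling, since centring on spike-in probes, which shifted all probes by −0.38, gave a family median of −0.33 with 0 of 77 above 0, and quantile normalisation gave −0.02 with 26 of 77. The 95% confidence intervals reached from −0.38 to 0.61.

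Rps10, in the head of the small subunit, had the largest value, 0.19 ± 0.18 (SE, n = 3 and 2 arrays, adjusted p 1). It measured 9.35, 9.51 and 9.26 with serum and 9.02 and 9.34 without, so the groups overlapped. Rps16 and Rplp0 followed at 0.15 ± 0.16 each. Rps15 had the lowest value, −0.10 ± 0.12 (adjusted p 1), from 7.55, 7.66 and 7.46 against 7.58 and 7.72. Rpl18 was at −0.07 ± 0.12 and Rpl5 at −0.07 ± 0.13. For Rps6 the difference was 0.09 ± 0.17, and it was 0.09 ± 0.14 for Rpl10a, −0.04 ± 0.12 for Rps18 and 0.02 ± 0.13 for Rpl13a.

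By role, the median was 0.06 for the small subunit genes, 0.06 for the large subunit genes and 0.08 for the stalk genes. Of 77 genes, 1 had all serum arrays above both arrays without serum, against 9.76% of all probes tested and 7.84% in the brightest 10%. It was the large subunit gene Rpl29, named after its values were seen, with 9.03, 9.00 and 8.98 against 8.87 and 8.96. Leaving out no serum replicate 1, the brightest array, turned the median from 0.06 to −0.05, with 11 of 77 genes above 0. Leaving out no serum replicate 2 raised it to 0.18, and leaving out serum replicate 2 or 3 gave 0.014 or 0.10.

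Cordycepin plus serum was also set against no serum, a comparison that shares its arrays with the 2 above. Again 0 of 77 genes passed, where 15.1% of all probes tested did, with 9.28% higher and 5.85% lower. Among probes for RefSeq mRNAs 10.5% passed, and in the brightest 10% of probes 2.11% did. An unadjusted p under 0.05 was found for 28 of 77 (36.4%), against 27.5% of all probes and 527 of 3087 in the brightest 10%. The median log2 difference was 0.31, beside 0.09 over all probes tested and 0.20 in the brightest 10%, and 77 of 77 values were above 0, but with centring on spike-in probes the family median was −0.13 and 3 of 77 were above 0. Centring on spike-in probes shifted all probes by −0.44 and the array median by −0.21. Relative to the median of all probes, which these scalings move with the family by construction, the family lay 0.22 higher, and it lay 0.098 higher with normexp correction and 0.020 higher with quantile normalisation. With a trended and robust variance 8 of 77 genes passed, all higher, against 10.1% of all probes. For that fit the share in the brightest 10% was not computed. Rps16 had the largest value, 0.46 ± 0.16 (adjusted p 0.113), followed by Rps10 at 0.46 ± 0.18 and Rps14 at 0.45 ± 0.18. Rps16 measured 9.64, 9.24 and 9.32 with cordycepin plus serum and 8.80 and 9.08 without serum, with no overlap. In 64 of 77 genes the groups did not overlap, against 29.9% of all probes tested and 52.6% in the brightest 10%. The lowest values were those of Rps15 at 0.05, Rps19 at 0.07 and Rpl18 at 0.17.

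Genes of the same machinery were examined by lists. They were read on probes for RefSeq mRNAs, of which 14.1% passed against serum (1201 higher and 1318 lower of 17899). Against no serum 10.5% of these probes passed, 973 higher and 908 lower. Ribosomal proteins whose names the rule does not cover, such as Fau and Rack1, had 0 of 6 past the test with cordycepin and a median log2 difference of 0.23. Other mRNAs known for a TOP tract, among them the elongation factors Eef1a1 and Eef2 and the poly(A)-binding protein Pabpc1, had 0 of 27 and a median of 0.22. Translation initiation factors had 0 of 30 and a median of 0.12. Against no serum, 2 of the 30 passed, both higher with cordycepin. Eif1, which takes part in the choice of the start codon, rose by 0.74 ± 0.16 (adjusted p 0.0156), a call lost under 5 of 20 alternatives. The other was Eif5b, which joins the subunits. Its probe was above background on 3, 2 and 1 arrays of the cordycepin plus serum, serum and no serum groups, so it entered the test through the group where it was high, and its call was lost under 13 of 19 alternatives.

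Genes for making ribosomes were listed apart from those for their proteins. Of 66 ribosome biogenesis factors tested, 1 rose and 6 fell with cordycepin, and their median log2 difference was −0.01. By comparison, 12.1% of all probes were higher and 7.26% lower. Of 17899 RefSeq mRNA probes, 1201 were higher and 1318 lower. Surf6, a nucleolar protein, fell by 1.40 ± 0.16 (SE, adjusted p 0.000571), and the kinase Riok2, which matures the small subunit, fell by 0.85 ± 0.12 (adjusted p 0.00135). The helicase Ddx47 rose by 0.46 ± 0.11 (adjusted p 0.0203), a call lost under 8 of 20 alternatives. Ppan, Nip7, Tsr1 and Nmd3, also factors of ribosome assembly and export, fell by 0.46 to 0.70. Against no serum, Ddx47 rose and Surf6, Riok2 and Ppan fell, where 9.28% of all probes were higher and 5.85% lower. Ppan fell by 0.64 ± 0.12 (adjusted p 0.00837).

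Of 35 genes of RNA polymerase I and III and their factors, which make ribosomal and transfer RNA, 0 rose and 4 fell with cordycepin. Among all probes 7.26% were lower, and among 17899 RefSeq mRNA probes 1318 were. The 4 that fell were Brf2, Polr3d, Taf1a and Polr3a. Brf2, a factor of RNA polymerase III, fell by 1.05 ± 0.15 (adjusted p 0.00183), and the subunit Polr3d fell by 1.02 ± 0.10 (adjusted p 0.000288). Against no serum, 0 rose and 5 fell, namely Brf2, Polr3d, Taf1a, Taf1c and Cd3eap. In that comparison 5.85% of all probes and 908 of 17899 RefSeq mRNA probes were lower. Cd3eap, a subunit of RNA polymerase I, fell by 0.77 ± 0.19 (adjusted p 0.0256), a call lost under 7 of 20 alternatives. Genes outside the rule for named genes were added after their values were seen. The calls of Surf6, Riok2, Brf2 and Polr3d against serum held under 19 of 20 alternatives each and were lost with spike-in scaling. Among 18 regulators of TOP mRNAs, 1 rose and 2 fell, where 19.4% of all probes and 14.1% of RefSeq mRNA probes passed. Pdcd4, an inhibitor of Eif4a that mTOR signalling removes, rose by 0.61 ± 0.15 (adjusted p 0.0213). The mTORC1 component Rptor fell by 0.37 ± 0.10 (adjusted p 0.0307), and Larp1b, a relative of the TOP-binding protein Larp1, fell by 0.41 ± 0.12 (adjusted p 0.0422). The calls of Larp1b, Rptor and Pdcd4 were lost under 12, 9 and 7 of 20 alternatives. Mlst8, another mTORC1 component, differed by −0.27 ± 0.11 from serum (adjusted p 0.129) and by −0.60 ± 0.12 from no serum (adjusted p 0.0119), and the latter call was lost under 3 of 20.

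The mitochondrial ribosomal proteins, whose genes carry names of the same form, had 2 of 76 higher and 0 lower with cordycepin. Their median log2 difference was 0.18. Among all probes 12.1% were higher, and among 17899 RefSeq mRNA probes 1201 were. The genes of this list that rose were Mrps23, by 0.37 ± 0.11 (adjusted p 0.0424), and Mrps9, by 0.32 ± 0.09 (adjusted p 0.0464). These calls held under 5 and 4 of 20 alternatives. Against no serum, Mrpl37 was at 0.52 ± 0.14 (adjusted p 0.0414) and Mrpl44 at −0.61 ± 0.13 (adjusted p 0.017), calls lost under 13 and 4 of 20 alternatives. With serum alone, 0 genes of any of these 7 lists passed, where 1.27% of tested RefSeq mRNA probes did.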

How the data were processed

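Total RNA was labelled with Cy3 by an amplification primed from the poly(A) tail and hybridised to 1-colour Agilent mouse arrays, 8 in all on 1 slide read in 1 scan. The deposited files hold intensity per spot on a linear scale, which the authors extracted with Feature Extraction 10.7.3.1 (background-subtracted and detrended processed signal, with probe positions on mm9). Each array held 62976 spots, of which 3671 were controls, and no spot was saturated. The study used limma, and its normalisation and filter are not given in the sources used here.

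Here log2 of the processed signal minus the 75th percentile of the non-control spots of the array was used. Control spots and spots flagged as outliers did not enter, and repeated spots of a probe were replaced by their mean. Tests were limited to probes that all arrays of 1 group or more measured well above background. Groups came from the labels and were compared in R 4.3.3 with limma 3.58.1. One linear model with a mean for each group was fitted over 8 arrays, with two-sided p-values and Benjamini-Hochberg adjustment over 30863 probes. A gene passed at an adjusted p under 0.05, and confidence intervals are at 95%. The p-values measure the spread between these arrays, whose number limits the precision. The calculation was tested on simulated data. Each gene was read on its probe with the highest mean.

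The genes, the lists set beside them and the rule for naming genes were chosen with earlier results of these data known. Genes were named if they had 1 of the 3 highest or lowest values where fewer than 3 passed, if they stood on a list of members with known roles, or if they were among the 2 largest passing changes of another list. All 85 RefSeq accessions of members matched the RefSeq table (GRCm38.p6), of which no gene coordinates other than start-site windows were used. The alternatives were other background corrections, scalings, filters, fits, blocks and probes, and leaving out single arrays. The brightest probe on the chromosome of the gene and centring on the ribosomal protein genes were added after the data were seen.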

Additional observations from a re-analysis of the deposited data

How the results depend on the processing

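With the fit as reported, no ribosomal protein gene passed on its brightest probe in any comparison, and the counts of 0 held when single arrays were left out (0 to 0). With a trended and robust variance 4 genes passed against serum (Rpl19, Rpl35a, Rps18 and Rps9, adjusted p 0.0382 to 0.0495, where 13.7% of all probes were higher) and 8 against no serum (10.1%). Shares among the brightest probes were not computed for that variance. An unadjusted p gave 13 and 28. The mean over all probes of a gene, and the brightest probe on the chromosome of the gene (40 genes, added after the data were seen), gave 1 gene, Rps15a, in each of these comparisons. Both rest on its dim probe at base 4642, with a difference to serum of 2.32, while its other probes were at 0.18 and 0.20.

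The median change against serum was 0.26, and 0.17 to 0.29 with single arrays left out. It was 0.040 after quantile normalisation and −0.049 with centring on the array median. The median of cordycepin plus serum against no serum was 0.31, and 0.21 to 0.42 with single arrays left out. It was 0.014 after quantile normalisation, 0.10 with the array median, −0.13 with spike-in probes, and 0.46 and 0.12 within slide rows 1 and 2. The median of serum against no serum was 0.06, −0.05 to 0.18 with single arrays left out, and −0.33 with spike-in probes. Within slide rows 1 and 2 the median against serum was 0.30 and 0.15. For serum against no serum the median was 0.15 in row 1 and −0.04 in row 2, with 75 and 20 of 77 genes above 0. The cordycepin plus serum and serum groups were not spread evenly over the rows. The causes were not tested.

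Whether the replicate numbers pair the arrays could not be decided. With each group mean subtracted, correlations of same-numbered arrays of the cordycepin and serum groups were −0.00, −0.17 and 0.14. They were −0.04 and 0.23 for serum and no serum, and −0.09 and 0.0016 for cordycepin plus serum and no serum. Deviations from the mean of so few arrays depend on each other, so these values cannot exclude pairing. With the replicate block the medians were 0.26, 0.10 and 0.35 for cordycepin plus serum against serum, serum against no serum and cordycepin plus serum against no serum, and 0 genes passed in each. Of 2105 values of single named genes under an alternative, 152 lost and 21 gained significance, and 183 that did not pass had the opposite sign.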

Other observations

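Of the 162 tested probes of ribosomal protein genes, 16 lay below the brightest 10% of all probes tested. Their log2 differences between cordycepin plus serum and serum ran from −0.02 to 2.32 with a median of 0.23. Of the 16, 2 passed (12.5%), where 19.4% of all probes tested did. In the classes of signal below the brightest 10%, 7.81 to 34.1% of probes passed.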
